A study of Mus musculus with 7 samples.

Results

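Brd8, Ino80e, Zmym3 and Phf14 encode chromatin proteins, and the deposited splicing table lists 6 alternative splicing events under these 4 gene names, out of 278 events and 228 gene names in all. The members were taken by gene name from a table whose events were selected on the DRIMSeq p-value of the same contrast, mutant against control. All 6 events are cassette exons, included or skipped whole: 1 in Brd8, 2 in Ino80e, 2 in Zmym3 and 1 in Phf14. Brd8 encodes a bromodomain subunit of the TIP60/NuA4 acetyltransferase complex, and Ino80e a small subunit of the INO80 nucleosome remodeller. Zmym3 encodes an MYM-type zinc finger protein found with LSD1 and histone deacetylases, and Phf14 a PHD finger protein that binds histones. Bromodomains read acetylated lysines and many PHD fingers read the tail of histone H3, while remodellers of the INO80 family move nucleosomes or exchange histones within them. Splicing can alter such a protein by removing a stretch within it, by removing its start codon, or by shifting the reading frame, and an exon that carries a stop codon can send the transcript to nonsense-mediated decay, which destroys messages with a stop codon well before the last splice junction.

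The libraries were made from epithelium of the cervical loop of the mouse incisor, at the base of this continuously growing tooth, where progenitors renew the epithelium. Every mouse, aged 8 to 10 weeks, carried K14CreER and Srsf1fl/fl, so the controls have the floxed alleles and the Cre too. The mice behind the 3 control libraries (replicates 1, 2 and 7) were not given tamoxifen, and those behind the 4 mutant libraries (replicates 3, 4, 5 and 9) were. The keratin 14 promoter limits the inducible Cre to epithelium, SRSF1 is a splicing factor of the SR family that usually favours exon inclusion, and exposure to tamoxifen and loss of Srsf1 cannot be told apart in this design. The labels do not say whether each library is 1 animal.

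Percent spliced in (PSI) gives, for each library, what share of the reads informative for an event supports inclusion. Read numbers per event were not analysed here, so the depth behind each value is unknown. As a check of the labels, the single listed Srsf1 event, which joins its first exon to a downstream gene, had PSI values of 5.83% to 10.07% in the controls and 44.74% to 85.52% in the mutants. Mutant library 4 was the mutant library furthest from the control mean in 57.2% of the 278 events, and mutant library 9 the nearest in 48.9%. None of 22 marker genes of dental epithelium, mesenchyme, blood or endothelium had a listed event, and without expression values the tissue label could not be checked against markers. In bulk tissue, fewer cells of a type and less RNA per cell cannot be told apart, nor can altered splicing within cells and a different mix of cells.

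The sequences of the Ino80e, Zmym3 and Phf14 exons show what each splicing choice adds to or takes from the message. They were read from GENCODE M21 transcripts on GRCm38, 5′ to 3′ on the transcribed strand. In Ino80e the listed exon has 2 forms that share their 5′ splice site and differ at the 3′ splice site. The longer form, at chr7:126857226-126857342 on the minus strand, is shown, with the 51 bases found only in it in capitals.
Ino80e exon: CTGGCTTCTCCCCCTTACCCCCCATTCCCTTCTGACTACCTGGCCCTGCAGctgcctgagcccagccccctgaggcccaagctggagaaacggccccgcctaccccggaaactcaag
The alternative 3′ splice sites of this exon are shown with 20 intronic bases (for the shorter form, bases that are exon in the longer one) and 3 exonic bases, with the AG in capitals.
Ino80e longer form: cttcctgctcccacctgcAGctg
Ino80e shorter form: ctgactacctggccctgcAGctg
The last 10 bases of both sites are the same, and 15 of the 18 bases before the AG are pyrimidines at the site of the longer form, against 12 of 18 at that of the shorter form.

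In Zmym3 the listed exon also has 2 forms, which share their 3′ splice site and differ at the 5′ splice site. The stretch shown runs from the start codon to the internal 5′ splice site that ends the shorter form, at chrX:101418789-101418939 on the minus strand, with the start codon and the GT of that splice site in capitals.
Zmym3 coding start: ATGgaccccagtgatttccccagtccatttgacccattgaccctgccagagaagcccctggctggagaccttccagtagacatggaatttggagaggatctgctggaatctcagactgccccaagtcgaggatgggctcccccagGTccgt
In Phf14 the listed exon, at chr6:12045585-12045764 on the plus strand, holds a stop codon in the reading frame of the coding transcript, shown in capitals.
Phf14 exon: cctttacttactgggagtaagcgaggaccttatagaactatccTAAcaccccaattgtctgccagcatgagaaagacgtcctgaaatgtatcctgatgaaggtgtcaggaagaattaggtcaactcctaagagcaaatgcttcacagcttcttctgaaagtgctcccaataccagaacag
Its 3′ splice site, with the AG in capitals, has 10 pyrimidines among the 18 bases before the AG.
Phf14 3′ splice site: atttaaacttggacttgcAGcct

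**Figure D1:**
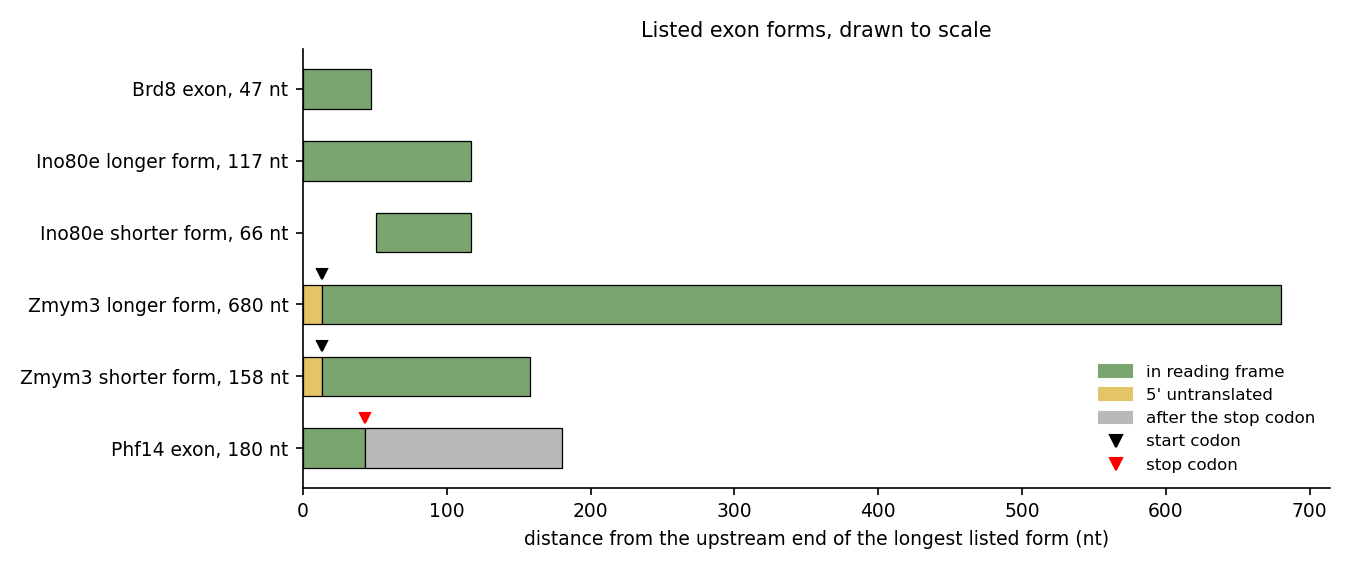
The 6 listed exon forms drawn to scale, with the distance in nucleotides from the upstream end of the longest listed form of each gene on the horizontal axis. Green is read in the frame of the transcript used, yellow is 5′ untranslated, grey follows the stop codon, and triangles mark the Zmym3 start codon 13 bases into its exon and the Phf14 stop codon after 43 bases of its exon.

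Exon inclusion was lower in the mutants in all 5 events of Brd8, Ino80e and Zmym3, and higher in the 1 event of Phf14. In none of the 6 events did the groups overlap, and all 6 passed limma at an adjusted p of 0.05 in a fit over the whole table. The background for either count is 95.7% of the 278 listed events, so neither is a result about these genes. For mutants lower, 79.1% of all events had groups that did not overlap and 78.8% passed limma, and for mutants higher these shares were 16.5% and 16.9%. The table lists only events with a DRIMSeq corrected p of at most 0.0979 for this same contrast, so the differences below are descriptions of selected events, and unlisted events cannot be called unchanged. Values are PSI as mean ± SD over 3 control and 4 mutant libraries, and differences are in percentage points with limma's standard error (SE).

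**Figure D2:**
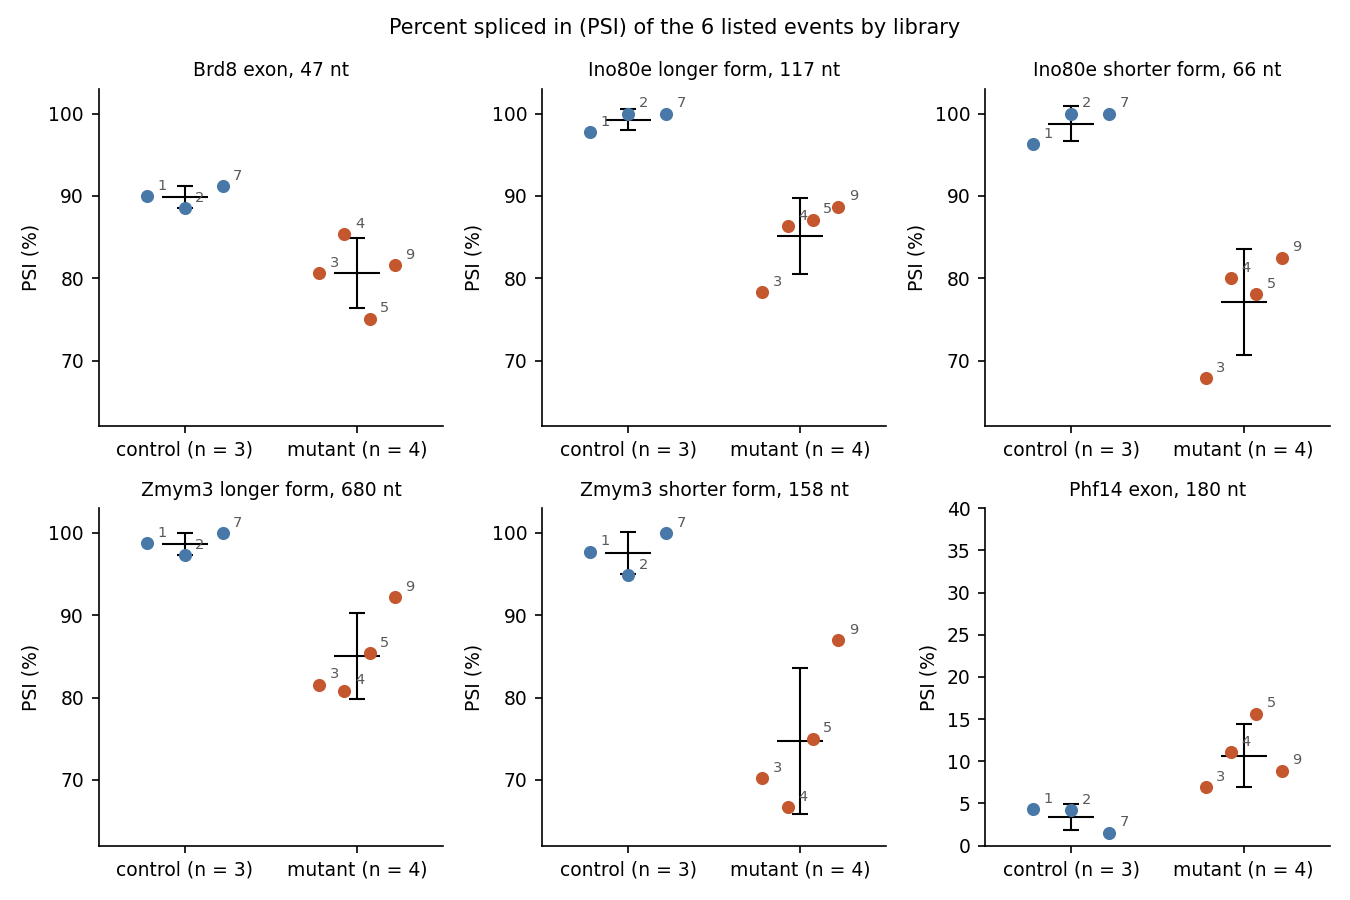
PSI in percent of each listed event in each library, with library numbers beside the points, controls in blue and mutants in orange, and the mean and SD as black bars. The vertical axis starts at 0% for Phf14 and above it for the other genes, with about the same span, and in each panel the control and mutant points do not overlap.

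Among the listed forms, the shorter form of the Zmym3 exon had the largest difference in PSI. It shares skipping and inclusion junctions with the longer form, so a larger difference need not mean a larger change of that form. The exon is exon 2 of 25 in the transcript that GENCODE M21 marks as principal, and the gene (ENSMUSG00000031310.16) lies on chromosome X from 101404384 to 101420849 on the minus strand. Its longer form, 101418273 to 101418952, is 680 nucleotides (nt) long, the longest of the 173 listed cassette exons, whose median length is 116 nt. It begins with 13 nt of 5′ untranslated sequence and holds the annotated start codon of all 9 transcripts that contain it. Annotated start codons lay in 11 of the 173 listed cassette exons (6.36%), the 2 Zmym3 forms included.

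The shorter Zmym3 form, 101418795 to 101418952, had PSI values of 97.73%, 94.87% and 100% in controls 1, 2 and 7. In mutants 3, 4, 5 and 9 it had 70.21%, 66.67%, 75.00% and 86.96%. All mutants lay below all controls, and mutant 9 stood closest to them, 7.91 points under the lowest control. The means were 97.5% ± 2.57 (SD, n = 3) and 74.7% ± 8.85 (SD, n = 4), a difference of −22.8 points (SE 4.54). The longer form had 98.78%, 97.33% and 100% in the controls and 81.58%, 80.85%, 85.44% and 92.21% in the mutants. Its difference was −13.7 points (SE 2.95), and its libraries kept the same order as those of the shorter form.

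Both Zmym3 events are measured against the same 4 skipping junctions, which join the next exon to 4 alternative upstream 5′ splice sites, so the events are not independent. Of these skipping junctions 1 is in GENCODE M21, in a transcript without a coding sequence. Both events also share the inclusion junctions upstream of the exon. The odds of the longer form (PSI divided by 100 minus PSI) were set over those of the shorter form. Their ratio would compare the inclusion forms only if the inclusion reads of each event came from that form alone. This ratio was 1.88 and 1.97 in controls 1 and 2 and lay between 1.78 and 2.11 in the 4 mutants (control 7 has PSI of 100 and gives no ratio), so the ranges overlap. How reads of the shared inclusion junctions were divided between the forms is not stated in the labels or the file. If those reads count in both events, the ratio cannot show the balance between the inclusion forms, and nothing is concluded about it. A high PSI of the shorter form then also does not show that this form was common, in either group. In the values as deposited, the groups differed in skipping against inclusion in both events.

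For the protein, the choices at this exon are unequal. The shorter form leaves out 522 nt, or 174 codons, and keeps the reading frame, giving 1196 codons where the principal transcript has 1370. Skipping the exon removes the annotated start codon. The first ATG downstream in the annotated frame would leave 1099 codons, 271 fewer, and whether translation starts there was not measured. Mean skipping, as 100 minus the mean PSI against the shorter form, was 2.47% in the controls and 25.3% in the mutants, and against the longer form 1.30% and 15.0%. These levels differ although the skipping junctions are the same, so neither can be taken as the share of all transcripts that skip the exon.

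Ino80e also had a longer and a shorter form of 1 exon, with inclusion near complete in the controls and lower in the mutants. The gene (ENSMUSG00000030689.15) lies on chromosome 7 from 126850960 to 126862377 on the minus strand, and the exon is exon 6 of 7 in the principal transcript. Its 117-nt form is part of 6 annotated transcripts, 5 of them protein-coding, while the 66-nt form, 126857226 to 126857291, is annotated in 1 transcript without a coding sequence. All 4 junctions of these events are in GENCODE M21.

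The 66-nt form of Ino80e had PSI values of 96.30%, 100% and 100% in controls 1, 2 and 7 and 67.86%, 80.00%, 78.05% and 82.50% in mutants 3, 4, 5 and 9. The groups were 13.8 points apart at their closest, the widest gap of the 6 events, and mutant 3 was the lowest. The means were 98.8% ± 2.14 (SD, n = 3) and 77.1% ± 6.43 (SD, n = 4), a difference of −21.7 points (SE 3.49). The 117-nt form had 97.78%, 100% and 100% in the controls and 78.31%, 86.36%, 87.14% and 88.71% in the mutants, a difference of −14.1 points (SE 2.73). Mutant 3 was the lowest here too, and mutant 9 the highest in both forms.

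The Ino80e events also share their 1 skipping junction. The odds of the longer over the shorter form were 1.69 in control 1, the only control in which they can be computed, and 1.58 to 1.91 in the mutants. The single control value lies within the mutant range. Both events also share the inclusion junction downstream of the exon. The limits given for the Zmym3 ratio, and for the PSI and difference of its shorter form, therefore hold here too. Every choice keeps the reading frame: the shorter form has 17 codons fewer than the 244 of the principal transcript, and skipping has 39 fewer. The skipping junction is annotated in protein-coding transcripts. In contrast to Zmym3, the start codon lies in another exon and is kept in each form. Mean skipping was 0.740% in the controls and 14.9% in the mutants against the longer form, and 1.23% and 22.9% against the shorter form. As for Zmym3, neither level can be taken as the share of all transcripts that skip the exon.

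Brd8 had the smallest loss of inclusion among the 5 events that were lower. The exon, chromosome 18 from 34606420 to 34606466 on the minus strand, is exon 15 of 22 in the principal transcript and is coding in all 4 annotated transcripts that contain it (ENSMUSG00000003778.14). PSI was 89.94%, 88.55% and 91.23% in controls 1, 2 and 7 and 80.62%, 85.37%, 75.09% and 81.60% in mutants 3, 4, 5 and 9. Mutant 4 stood closest to the controls, 3.18 points under the lowest, and mutant 5 furthest. The means were 89.9% ± 1.34 (SD, n = 3) and 80.7% ± 4.25 (SD, n = 4), a difference of −9.24 points (SE 2.59). Mean skipping, 100 minus PSI, was 10.1% in the controls and 19.3% in the mutants.

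The Brd8 exon is 47 nt long, which is no multiple of 3, so skipping it shifts the reading frame. In the principal transcript without it, a stop codon begins 11 nt past the new junction, so that 685 of 951 codons precede it. This stop lies 694 nt before the last junction, with 6 junctions after it. Skipping to the annotated 3′ splice site is in GENCODE M21 in 1 transcript, classed as retained intron. The table also uses a 3′ splice site 298 nt further upstream, from which neither the inclusion nor the skipping junction is in GENCODE M21, and its reading frame was not analysed here.

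Phf14 moved in the opposite direction. Its exon of 180 nt is annotated in 1 transcript, classed as a target of nonsense-mediated decay, and in no protein-coding one (ENSMUSG00000029629.17, plus strand, chromosome 6 from 11907809 to 12081205). Of the 173 listed cassette exons, 20 (11.6%) lie in no protein-coding reading frame, the shorter Ino80e form among them. PSI was 4.35%, 4.17% and 1.56% in controls 1, 2 and 7 and 6.98%, 11.11%, 15.65% and 8.89% in mutants 3, 4, 5 and 9. All mutants lay above all controls, with 2.63 points between the nearest libraries, the narrowest gap of the 6 events. The means were 3.36% ± 1.56 (SD, n = 3) and 10.7% ± 3.73 (SD, n = 4), a difference of 7.30 points (SE 2.43).

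The limma call for Phf14 lay near the threshold whichever control library was left out. The limma adjusted p was 0.0422 without control 1 and 0.0447 without control 2. Without control 7, the limma adjusted p was 0.0686 with a difference of 6.40 points, and the authors' deposited table gives this event the highest DRIMSeq corrected p it lists, 0.0979. The length of 180 nt is a multiple of 3, but the exon brings a TAA stop codon in the frame of the principal coding transcript at 12045628 to 12045630, after 43 nt of the exon. With the exon, 892 codons precede the stop where that transcript has 941, and the stop lies 255 nt before the last junction. The table also joins this exon and the exon after it to an upstream 5′ splice site whose intron begins at 12044491, through 2 junctions that are not in GENCODE M21. The reading frame of transcripts spliced from that site was not analysed here. Whether transcripts with this exon are degraded was not measured.

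The mutant libraries did not keep 1 order across the genes. Mutant 4 was furthest from the control mean for both Zmym3 forms (−30.9 points for the shorter), mutant 3 for both Ino80e forms (−30.9 points for the shorter), and mutant 5 for Brd8 (−14.8 points) and Phf14 (12.3 points). Mutant 9 was nearest for Zmym3 and Ino80e, mutant 4 for Brd8 and mutant 3 for Phf14. Brd8 had the same order of the 4 mutants as the Srsf1 event, 5, 3, 9 and 4 from furthest to nearest, and the other genes did not. With 4 libraries this is a description only.

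**Figure D3:**
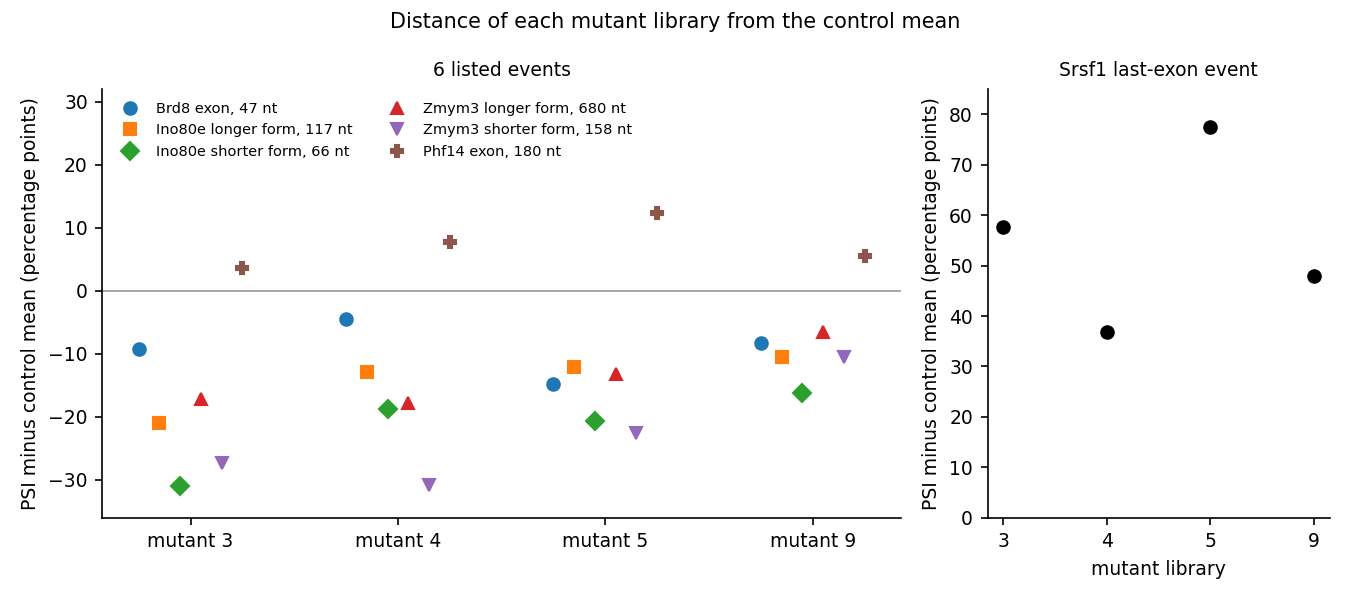
PSI of each mutant library minus the control mean, in percentage points, for the 6 listed events (left) and the Srsf1 event (right, on its own scale). The library furthest from 0 is mutant 4 for Zmym3, mutant 3 for Ino80e and mutant 5 for Brd8, Phf14 and the Srsf1 event.

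The corrected DRIMSeq p in the authors' deposited table was 0.00176 for both Ino80e and both Zmym3 events and 0.0378 for Brd8. It was thus below 0.05 in 5 of the 6 events, against 77.0% of all listed events, and since this p-value chose the table nothing is read from it. The JuncBASE corrected p in the authors' deposited table was between 0.217 and 0.328 for the 6 events and the Srsf1 event, and 1 of all 278 events had one below 0.05. By size, the shorter Zmym3 and Ino80e forms ranked 15th and 28th of 173 cassette exons, the longer forms 68th and 91st, Brd8 126th and Phf14 159th. The longer and shorter forms of a gene share skipping and inclusion junctions, so their ranks are not independent. The higher ranks of the shorter forms need not mean larger changes of those forms. The median absolute difference of medians was 14.3 points over the 6 events and 13.6 points over all 278.

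**Figure D4:**
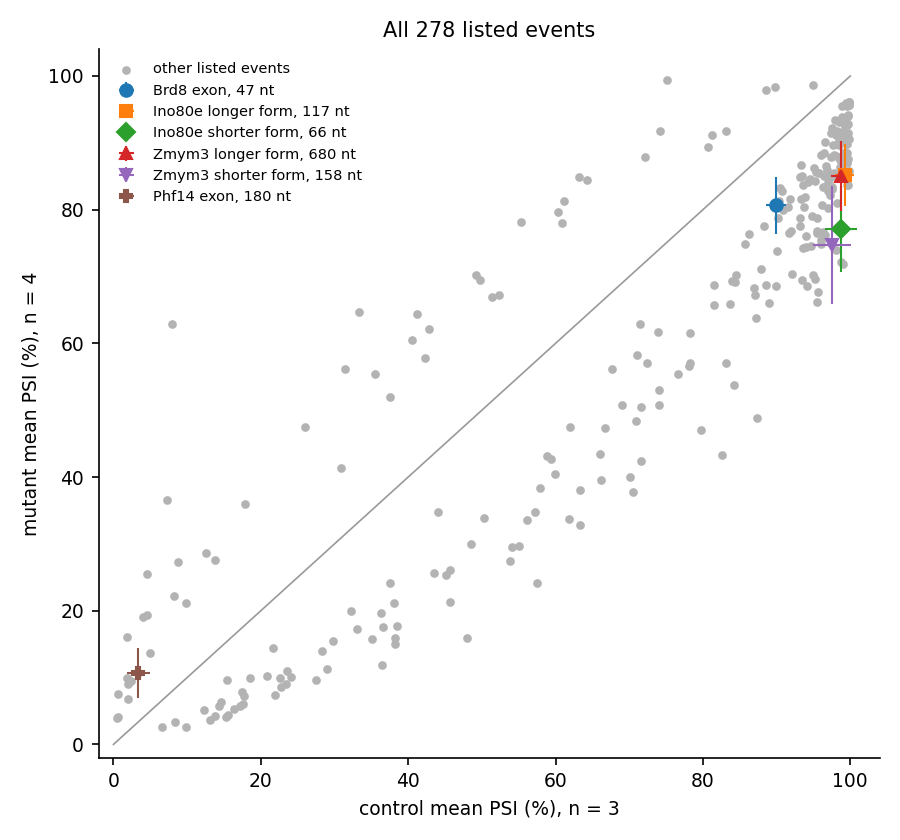
Mean PSI in the 3 controls (horizontal) against mean PSI in the 4 mutants (vertical), both in percent, for all 278 listed events, with SD bars on the 6 events described and a line of equal PSI. The Zmym3 and Ino80e forms lie at the upper right, below the line, with control means of 97.5% to 99.3%, and Phf14 lies at the lower left, above it.

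Related chromatin genes were looked up in 8 lists of complexes and domain families with 144 genes in all. Events were listed for 7 of these genes, all cassette exons, with 8 events lower and 2 higher in the mutants, including the 6 events above. Of all 173 listed cassette exons, 147 were lower and 26 higher, so this count is no result about chromatin genes. Of 15 INO80 genes, Mcrs1, which encodes another subunit, was listed beside Ino80e. Its cassette exon had a PSI of 93.2% ± 1.91 in the controls and 77.6% ± 1.91 in the mutants. The groups did not overlap, as in 95.7% of all 278 listed events, the Kdm5a and Kdm5c exons below included. Of 32 PHD finger genes, the histone H3 demethylase genes Kdm5a and Kdm5c were listed beside Phf14. A Kdm5a exon had 89.8% ± 0.386 in the controls and 98.3% ± 3.41 in the mutants, and the 2 listed Kdm5c exons had 96.8% ± 3.50 and 86.0% ± 3.95, and 93.5% ± 5.96 and 69.4% ± 7.71.

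Brd8 was the only one of 18 TIP60/NuA4 genes with a listed event, and Zmym3 the only one of 7 MYM zinc finger genes and of 12 genes of the LSD1-CoREST-HDAC list. The lists of 23 SWI/SNF genes and of 21 other remodellers had none. Since the table holds only selected events, these counts do not show that the other genes were spliced alike in both groups.

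The exons were also searched for GGA, a triplet found in many SRSF1 binding sites, and for the purine-rich GAAGAA, on the transcribed strand and with overlaps allowed. The 680-nt Zmym3 form held 28 GGA, or 4.12 per 100 nt, and its 158-nt form 7, or 4.43 per 100 nt. The Brd8 exon held 2, or 4.26 per 100 nt. The longer and shorter Ino80e forms held 2 each, both in the shared part, or 1.71 and 3.03 per 100 nt. Phf14, the exon with higher inclusion, held 3, or 1.67 per 100 nt. The median of all listed cassette exons was 3.175 per 100 nt, so Zmym3 and Brd8 lay above it and Ino80e and Phf14 below. Of all GENCODE M21 exons of the same length, GGA was present in 97.7% for Phf14, 69.4% for Brd8, 93.2% and 79.4% for the longer and shorter Ino80e forms, and 100% and 96.6% for those of Zmym3. GAAGAA occurred 1 time each in the Brd8 and Phf14 exons and 0 times in the Ino80e and Zmym3 forms. It was present in 5.11% of all exons of the length of Brd8 and 15.7% of those of Phf14, in 12.8% and 7.73% for the longer and shorter Ino80e forms, and in 38.8% and 13.8% for those of Zmym3.

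The listed events most like each of these in PSI over the 7 libraries, by the mean absolute difference, were in other genes. For the longer Zmym3 form they were a cassette exon of Incenp (1.04 points) and a first exon of Cib1 (1.58 points), and for the shorter form cassette exons of Usp3 (2.61 points) and Cox20 (2.83 points). For the longer Ino80e form they were cassette exons of Gabpb2 (2.00 points) and Golim4 (2.18 points), and for the shorter form those of Cds1 (3.65 points) and Haus8 (3.69 points). For Brd8 they were cassette exons of Pabpc4 (2.22 points) and Sec31a (2.43 points), and for Phf14 retained introns of Pla2r1 (1.30 points) and Col27a1 (1.89 points). The measure reads the level of PSI as much as its change.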

How the data were processed

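Total RNA was sequenced after Illumina TruSeq RNA library preparation, per the labels' protocols. Bowtie, TopHat, SAMtools and DESeq were named, per the submitters' processing notes, and JuncBASE identified and quantified the events, per the series text. The authors deposited PSI as a percent for each library, with the group medians, and the difference of medians in percentage points. The authors also deposited JuncBASE and DRIMSeq p-values, raw and corrected, per the file headers. All 7 library columns were matched to samples by title. The processing notes name mm9, but 650 of 863 distinct junctions (75.3%) coincide with an intron of GENCODE M21 (GRCm38) and 0 do after a shift of 1000 bases, so coordinates were read as GRCm38. Depth per event is unknown.

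PSI was fitted with limma 3.58.1 in R 4.3.3, mutant against control, over all 278 events with Benjamini-Hochberg adjustment at 0.05. The step was tested on simulated normal values of equal spread in both groups. PSI is bounded and these events were selected, so the simulation does not show how the fit behaves on them. Exons, reading frames and sequences came from GENCODE M21 with Python 3.11.15 and pandas 2.3.3, and 144 of 144 list symbols were found there. No genome sequence was used, so the splice sites of Zmym3 other than the internal one are not shown. Since separate animals are not stated, p-values reflect only spread among these libraries, which may be technical. The members and lists were chosen with earlier results of these data known. Named were all member and Srsf1 events, listed genes of the 8 lists (up to 3 per list, by largest change), and the 2 events of other genes nearest in PSI to each member event. One item of the lists is not reported here. Alternatives were a logit scale, robust moderation, library weights, 1 event per overlapping group (with all 6 member events kept) and leaving out each library.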

Additional observations from a re-analysis of the deposited data

How the results depend on the processing

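All 6 events kept their direction under a logit scale, robust moderation, library weights, 1 event per overlapping group with all 6 member events kept (236 events for 234 groups), a difference of medians and leaving out each of the 7 libraries. All 6 kept their limma call at an adjusted p of 0.05, except Phf14 without control 7 (6.40 points, adjusted p = 0.0686, against 0.00577 at its lowest). Under the same alternatives 239 to 275 of all 278 listed events were called, and 228 of the 236 in the reduced fit. Keeping the call is thus not particular to these genes. With 1 library left out, differences lay between 5.63 and 8.52 points for Phf14, −10.8 and −7.38 for Brd8, −15.3 and −11.9 for the longer and −23.5 and −18.6 for the shorter Ino80e form, and −16.1 and −12.3 for the longer and −26.9 and −20.1 for the shorter Zmym3 form. No paired analysis was possible because the control and mutant libraries share no replicate number. PSI is given without read numbers, so the precision of values at 100% or near 0 is unknown.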
